A study of Mus musculus with 9 samples.

Results

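Neutrophil granule proteins are represented here by 9 genes, chosen by symbol, out of the 40879 genes listed in each of 9 libraries. The 4 genes of primary granules are Prtn3, Mpo, Elane and Ctsg, the 4 of secondary granules are Mmp8, Ngp, Ltf and Camp, and the gene of tertiary granules is Mmp9. Neutrophils make their granules in order as they mature in the bone marrow. The primary (azurophil) granules, filled with myeloperoxidase and serine proteases, come at the promyelocyte stage, the secondary (specific) granules with lactoferrin and cathelicidin at the myelocyte stage, and the tertiary granules with gelatinase last. Dendritic cells share bone marrow progenitors with this lineage but are not known for these granules.

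The libraries came from mouse bone marrow cells grown with 100 ng/ml Flt3L for 9 days, from which cells labelled cDC2, a conventional dendritic cell subset, were sorted by flow cytometry. There were 3 groups of 3 libraries. WT cells were of wild-type genotype, WT+IFNa cells were of the same genotype with interferon alpha added on day 5, and A20iKO cells carried the genotype A20fl/fl x CD11ccre. In A20iKO, a Cre recombinase under the CD11c promoter removes A20, a ubiquitin-editing brake on NF-kB signalling encoded by Tnfaip3, in cells that express CD11c, so cells of the culture without CD11c are not targeted. All 3 groups had Flt3L, and no source used here gives the strain or age of the mice or the gate of the sort. The treatment field of the labels names IFNa for every library, but titles name it for the 3 WT+IFNa libraries alone, as does a treatment tag, and the groups follow the titles. Each group came from 3 mice, but whether each library is 1 mouse is not given, so the spread between libraries may be technical in part.

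Total counts were 6900598 to 10552756 per library. Levels are CPM, that is counts divided by library totals scaled with TMM factors, in which 1 count is worth 0.0979 to 0.148 CPM. Each read was taken to be a tag from the 3' end of a transcript, from the type of library kit. If so, a level does not grow with transcript length. Levels are set side by side between genes on that ground alone, since the handling of reads shared between genes is not given. Tnfaip3 stood at 22.7, 6.81 and 4.26 CPM in WT replicates 1, 2 and 3 and at 37.4, 53.9 and 39.6 CPM in A20iKO, and such a tag checks nothing about a deletion elsewhere in the gene. All 14 cDC2 markers listed had counts, with summed levels of 14804 to 18803 CPM in WT, 11050 to 13559 in WT+IFNa and 7650 to 9005 in A20iKO. Most of each sum was H2-Ab1 and Cd74, at 8487 ± 1114 and 5911 ± 684 CPM in WT. By edgeR, 10 of the 14 markers fell and 2 rose in A20iKO against WT, where 4.91% and 5.77% of all tested genes did. The fallers included Cd209a, a lectin of this subset, at 331 ± 63.9 CPM in WT and 10.97 ± 4.32 in A20iKO (SD, n = 3 each). The 2 that rose were Sirpa, from 170 ± 39.5 to 455 ± 32.5 CPM, and Clec4a4, from 7.86 ± 0.843 to 34.5 ± 3.16. The libraries labelled cDC2 thus differed by group in the markers of the label itself. Stromal transcripts stood at 465 to 4665 CPM in sum and were highest in WT replicate 2, WT+IFNa replicate 3 and A20iKO replicate 1. The last also stood apart in erythroid transcripts, mostly globins, at 606 CPM in sum against 87.5 to 136 in the other 8 libraries. Without it, the granule genes called in A20iKO were Prtn3, Mpo, Ctsg, Mmp8 and Camp against WT (1211 genes called in all) and Prtn3, Mmp8 and Ngp against WT+IFNa (545).

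In A20iKO against WT, 3 of the 4 primary granule genes rose (Prtn3, Mpo and Ctsg), as did the secondary granule collagenase Mmp8. Elane did not pass the test. Ngp, Ltf and Camp of the secondary granules were at or near 0 in A20iKO. With IFNa, Prtn3 rose over WT, and Ngp stood at its highest level of the 3 groups. Each comparison used the quasi-likelihood test of edgeR over the 13251 genes that passed a filter on low counts, with Benjamini-Hochberg adjustment and a threshold of 0.05. All 9 granule genes passed the filter, and each reached its cutoff of 1.13 CPM in at least 3 of the 6 libraries outside A20iKO, so none passed through A20iKO alone.

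Promoter sequence is shown for the 5 genes that passed a test in any comparison, because Mmp8 moved with the primary granule genes while Ngp moved the other way. Each is the 250 bases before the start site in RefSeq's table for GRCm38.p6, a build earlier than the one the counts were made on, and is read 5′ to 3′ on the gene's own strand. Capitals mark every match, on either strand, to GAGGAA (a form of the ETS core bound by PU.1) or to TTNNGNAA (a form of the C/EBP site). They lie at chr10:79879417-79879666 on the plus strand for Prtn3, chr11:87793534-87793783 on the plus strand for Mpo, chr14:56102575-56102824 on the minus strand for Ctsg, chr9:7558179-7558428 on the plus strand for Mmp8, and chr9:110419558-110419807 on the plus strand for Ngp.
Prtn3: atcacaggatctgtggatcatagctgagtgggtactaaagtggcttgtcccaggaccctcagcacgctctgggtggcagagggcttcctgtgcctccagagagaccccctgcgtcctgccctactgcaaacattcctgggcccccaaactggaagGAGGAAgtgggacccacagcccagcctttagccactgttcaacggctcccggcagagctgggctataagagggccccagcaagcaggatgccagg
Mpo: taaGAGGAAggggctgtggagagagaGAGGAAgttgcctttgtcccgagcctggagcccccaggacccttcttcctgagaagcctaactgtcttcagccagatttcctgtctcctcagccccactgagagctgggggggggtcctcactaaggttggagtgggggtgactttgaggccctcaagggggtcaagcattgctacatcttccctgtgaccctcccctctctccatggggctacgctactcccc
Ctsg: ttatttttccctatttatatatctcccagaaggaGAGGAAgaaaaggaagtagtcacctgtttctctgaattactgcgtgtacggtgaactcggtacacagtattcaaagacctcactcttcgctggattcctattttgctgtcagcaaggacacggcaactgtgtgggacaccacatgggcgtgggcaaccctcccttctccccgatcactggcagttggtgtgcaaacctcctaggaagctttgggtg
Mmp8: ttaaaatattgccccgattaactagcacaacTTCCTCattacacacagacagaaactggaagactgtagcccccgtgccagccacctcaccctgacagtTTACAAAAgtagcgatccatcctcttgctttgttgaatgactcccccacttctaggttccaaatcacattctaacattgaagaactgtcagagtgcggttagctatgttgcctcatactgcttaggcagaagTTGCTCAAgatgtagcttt
Ngp: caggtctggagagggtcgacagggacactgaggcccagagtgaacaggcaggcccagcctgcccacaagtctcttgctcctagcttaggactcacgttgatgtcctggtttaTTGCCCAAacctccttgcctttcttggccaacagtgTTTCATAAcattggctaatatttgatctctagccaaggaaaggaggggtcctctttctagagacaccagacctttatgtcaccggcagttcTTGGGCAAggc

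The table matched 8 of the 9 genes, and Mmp9 had no entry. GAGGAA was present in the promoters of Prtn3, Mpo, Elane, Ctsg, Mmp8 and Ltf, that is in all 4 primary granule genes, and in 23.3% of 32851 promoters of the same length. TTNNGNAA was present in Mmp8, Ngp and Ltf, and in none of the 4 primary granule genes, against 36.8% of promoters. Mmp8 and Ltf held both motifs. AACNG, a short form of the Myb site that overlaps a C/EBP-type match by 1 base in Mmp8, was in all 8 and in 74.2% of promoters. TGTGGT, of the RUNX type, was in Ctsg (14.0% of promoters), and an NF-kB-type motif in Prtn3, Mpo and Ltf (45.8%). An interferon response (ISRE-type) motif was in none of the 8 (2.98%). These are matches of letters and not sites of binding.

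Prtn3 encodes proteinase 3, a serine protease of the primary granule, and its row held the most counts of the 9 genes in A20iKO. Prtn3 stood at 0, 1.07 and 0.710 CPM in WT replicates 1, 2 and 3, at 10.7, 3.35 and 7.56 in WT+IFNa, and at 129, 196 and 197 in A20iKO. The 3 groups did not overlap: every WT+IFNa library was above every WT library, and every A20iKO library was above both. In pooled counts the level was 325-fold higher in A20iKO than in WT (95% exact interval 197 to 581), from 4591 counts against 15. Without molecular identifiers named for the reads, such intervals cover counting error alone. The log2 fold change of Prtn3 was 8.26 in A20iKO against WT (SE 0.643; 7.62 to 8.88 on leaving out 1 library; edgeR Benjamini-Hochberg adjusted p = 3.51e-06), and it ranked 40 of 13251 genes by p. Against WT+IFNa it was 4.59 (SE 0.503; edgeR adjusted p = 0.000119). In these bulk libraries more cells of a type and more RNA per cell cannot be told apart.

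The IFNa difference was smaller. Prtn3 was 7.19 ± 3.67 CPM in WT+IFNa and 0.593 ± 0.544 in WT (SD, n = 3), a log2 fold change of 3.66 (SE 0.626; edgeR adjusted p = 0.00453). This call held on leaving out each library in turn (log2 fold change 3.03 without WT replicate 1 to 4.32 without WT replicate 2; edgeR adjusted p 0.00280 to 0.0217). It did not hold with limma-voom (4.33; adjusted p = 0.242) or in an edgeR fit of the WT and WT+IFNa libraries alone (3.57; adjusted p = 0.249).

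Mpo encodes myeloperoxidase, which makes hypochlorous acid and is the most abundant protein of primary granules. Mpo stood at 0, 0 and 5.37 CPM in WT, 4.24, 0.578 and 4.00 in WT+IFNa, and 59.3, 72.6 and 63.9 in A20iKO. WT and WT+IFNa overlapped, and all 53 counts of the WT group lay in replicate 3, while the 3 A20iKO libraries stood close together and above the other 6. The mean rose from 1.79 ± 3.10 CPM in WT to 65.3 ± 6.76 in A20iKO (SD, n = 3), a log2 fold change of 5.14 (SE 1.14; edgeR adjusted p = 0.0101). On leaving out 1 library this ran from 4.55 to 12.12, the last without WT replicate 3, where WT holds no count and the fitted value is no bound. Against WT+IFNa the log2 fold change was 4.47 (SE 1.10; edgeR adjusted p = 0.0307), and this call was lost on leaving out any 1 library of either group (adjusted p 0.0515 to 0.129). With IFNa, Mpo differed from WT by 0.67 on the log2 scale (edgeR adjusted p = 0.900), and without WT replicate 3 by 7.65 (edgeR adjusted p = 0.0151), again with no count left in WT.

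Ctsg encodes cathepsin G, a further serine protease of primary granules. Ctsg stood at 0, 0 and 1.42 CPM in WT, 2.50, 3.70 and 3.56 in WT+IFNa, and 30.8, 28.4 and 28.9 in A20iKO. As with Mpo, WT replicate 3 held every count of its group, and the 3 groups did not overlap. Ctsg rose in A20iKO from 0.473 ± 0.819 to 29.4 ± 1.27 CPM (SD, n = 3), a log2 fold change of 5.87 over WT (SE 1.01; edgeR adjusted p = 0.00194). On leaving out 1 library it ran from 5.28 to 10.97, the last without WT replicate 3. Over WT+IFNa (3.25 ± 0.656 CPM) it was 3.17 (SE 0.861; edgeR adjusted p = 0.0511), just above the threshold, and it passed in 7 of 19 alternative settings. With IFNa the log2 fold change over WT was 2.69 (SE 0.936; edgeR adjusted p = 0.195). Without WT replicate 3 this comparison passed (edgeR adjusted p = 0.000985), again with no count left in WT.

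Elane encodes neutrophil elastase, the neighbour of Prtn3 on chromosome 10. Elane stood at 1.08, 1.74 and 0.203 CPM in WT, 4.46, 0.810 and 3.26 in WT+IFNa, and 4.20, 3.17 and 8.41 in A20iKO. The A20iKO libraries were all above WT, and those of WT+IFNa overlapped with both. None of its differences passed, with a log2 fold change of 2.38 in A20iKO against WT (SE 1.11; edgeR adjusted p = 0.2304). In A20iKO, Elane held 140 counts where Prtn3, the next gene, held 4591. Plppr3, which lies on the other side of Prtn3 and was named after its values were seen, was 0.735 ± 0.656 CPM in WT and 13.3 ± 1.91 in A20iKO (log2 fold change 4.14; edgeR adjusted p = 0.00898). No source used here gives the strand setting of the counting, so reads of adjoining genes may not be fully separated.

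**Figure D1:**
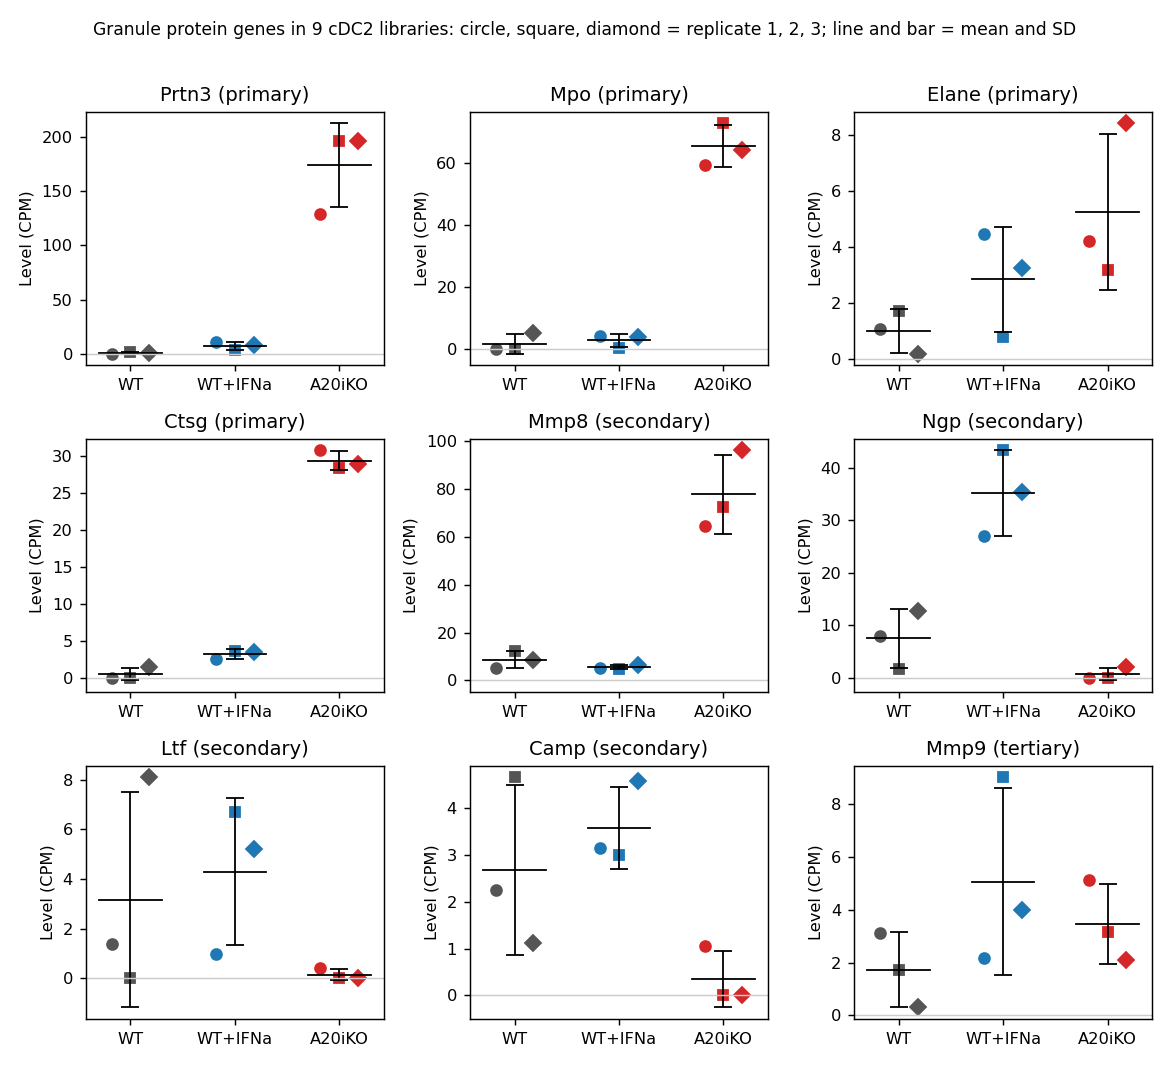
CPM of each of the 9 granule genes in every library, by group, with the mean and SD of 3 libraries. Prtn3, Mpo, Ctsg and Mmp8 stand highest in A20iKO, and Ngp stands highest in WT+IFNa and at 0 in A20iKO replicates 1 and 2.

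Among the secondary granule genes, Mmp8 encodes the neutrophil collagenase. Mmp8 stood at 5.09, 12.2 and 8.52 CPM in WT, 5.22, 4.86 and 6.38 in WT+IFNa, and 64.5, 72.3 and 96.1 in A20iKO. It was the 1 granule gene with at least 42 counts in every library, and the A20iKO libraries stood above the other 6, which overlapped. The rise over WT was 3.18 on the log2 scale (SE 0.349; edgeR adjusted p = 5.89e-05), from 8.59 ± 3.53 to 77.6 ± 16.5 CPM (SD, n = 3). Over WT+IFNa it was 3.82 (SE 0.362; edgeR adjusted p = 3.82e-05), and with IFNa the level differed from WT by -0.64 (SE 0.340; edgeR adjusted p = 0.479). Mmp8 kept both A20iKO calls in all 19 alternative settings.

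Ngp encodes neutrophilic granule protein, a cystatin-like protein of secondary granules related to cathelicidin. Ngp stood at 8.03, 1.74 and 12.8 CPM in WT, 27.0, 43.3 and 35.3 in WT+IFNa, and 0, 0 and 2.00 in A20iKO. WT+IFNa was above every other library, and the highest A20iKO library was above the lowest WT library. Ngp was lower in A20iKO than in WT+IFNa, 0.666 ± 1.15 against 35.2 ± 8.15 CPM (SD, n = 3), by a log2 fold change of -5.63 (SE 1.11; edgeR adjusted p = 0.00886), and all 19 alternative settings kept this call. On leaving out 1 library it ran from -5.06 to -11.24, the last without A20iKO replicate 3, where A20iKO holds no Ngp count. Against WT, A20iKO differed by -3.41 (SE 1.04; edgeR adjusted p = 0.0544). That value passed the threshold without WT replicate 2 (edgeR adjusted p = 0.0148) and without A20iKO replicate 3 (edgeR adjusted p = 0.00273), the 1 A20iKO library that held any Ngp count, where it was -9.02. It also passed with no filter on low counts (-3.42; edgeR adjusted p = 4.51e-07) and with the replicate number as a block. With IFNa, Ngp differed from WT by 2.22 (SE 0.910; edgeR adjusted p = 0.307), and by limma-voom this passed (adjusted p = 0.0304).

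Ltf encodes lactoferrin, an iron-binding protein. Ltf stood at 1.37, 0 and 8.11 CPM in WT, 0.979, 6.71 and 5.19 in WT+IFNa, and 0.394, 0 and 0 in A20iKO. WT spread from 0 to the highest value of any library and overlapped with both other groups, while A20iKO held 3 counts in all, below every WT+IFNa library. By those counts Ltf was 35.9-fold higher in WT+IFNa than in A20iKO (95% exact interval 11.9 to 177) and 29.5-fold higher in WT (9.79 to 146). Neither difference passed over libraries (edgeR adjusted p = 0.200 and 0.177), and DESeq2 put the first at 0.0419. The values for Ltf thus rest on few counts in A20iKO and on widely spread WT libraries.

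Camp encodes the cathelicidin antimicrobial peptide precursor. Camp stood at 2.25, 4.67 and 1.12 CPM in WT, 3.15, 3.01 and 4.60 in WT+IFNa, and 1.05, 0 and 0 in A20iKO. The 3 A20iKO libraries were below the other 6, which overlapped, though A20iKO replicate 1 was close to WT replicate 3. The log2 fold change was -2.92 against WT (SE 1.55; edgeR adjusted p = 0.302) and -3.34 against WT+IFNa (SE 1.57; edgeR adjusted p = 0.312), and neither passed. Without A20iKO replicate 1, the 1 library of its group with a Camp count, the first passed (edgeR adjusted p = 0.0427).

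Mmp9, the gelatinase of tertiary granules that is also made by macrophages and dendritic cells, stood at 3.13, 1.74 and 0.304 CPM in WT, 2.17, 9.02 and 4.00 in WT+IFNa, and 5.12, 3.17 and 2.10 in A20iKO. The 3 groups overlapped. Its log2 fold changes were 1.55 for WT+IFNa against WT, 1.00 for A20iKO against WT and -0.55 for A20iKO against WT+IFNa (edgeR adjusted p = 0.616, 0.662 and 0.906).

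**Figure D2:**
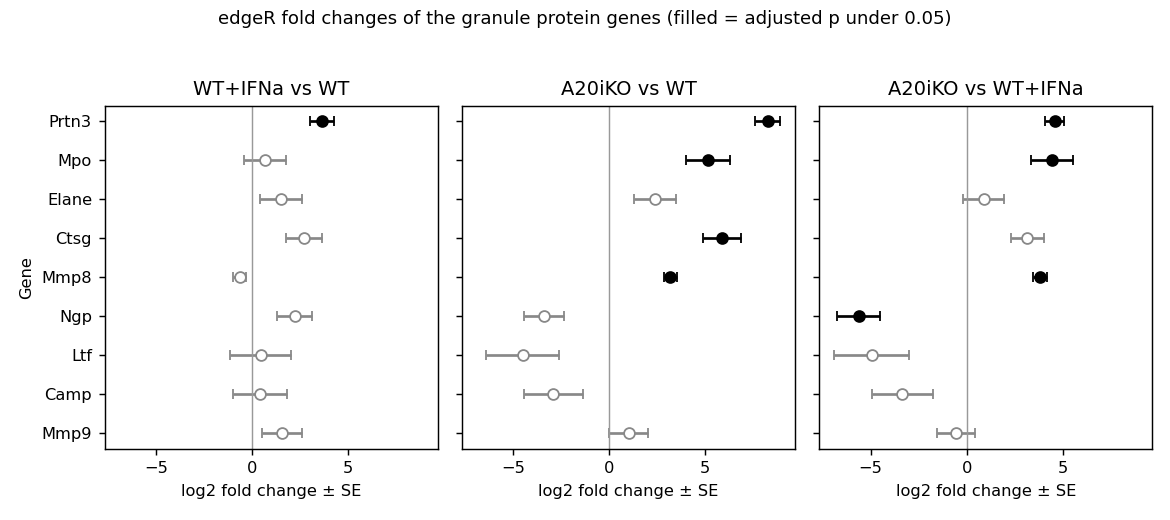
Log2 fold change and SE of the 9 granule genes in the 3 comparisons, by edgeR, with filled points for an adjusted p under 0.05. In A20iKO against WT, Prtn3, Ctsg, Mpo and Mmp8 lie to the right of 0 past the threshold, and Ngp, Ltf and Camp lie to the left without passing it.

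Counted over the 9 genes, A20iKO against WT gave 4 higher (Prtn3, Mpo, Ctsg and Mmp8) and 0 lower, where 5.77% of all tested genes were higher and 4.91% lower. Of the genes with a negative value, Ngp and Ltf had an unadjusted p under 0.05 in edgeR. They ranked 1457 and 2589 of 13251 genes by p, so at least 2589 genes, of either direction, had such a p. DESeq2 and limma-voom also called 0 lower, and edgeR with no filter on low counts called Ngp lower. The median log2 fold change of the 9 was 2.38, and that of all tested genes was -0.01. WT+IFNa against WT gave 1 higher (Prtn3) and 0 lower, where 2.40% of tested genes were higher and 0.702% lower, with a median of 1.50 against -0.02. Here 3 of the 9 had an unadjusted p under 0.05, all with a positive log2 fold change, and DESeq2 called 2 higher. The last of the 3 by p, Ngp, ranked 1301 of 13251 genes, so at least 1301 genes had such a p. A20iKO against WT+IFNa gave 3 higher (Prtn3, Mpo and Mmp8) and 1 lower (Ngp), where 2.05% and 3.41% of tested genes were called, with a median of 0.89 against 0.02. These comparisons share samples, so their counts are not separate evidence. Without TMM scaling, from library totals alone, the genes called with IFNa were 287 higher and 184 lower in place of 318 and 93, and those in A20iKO against WT+IFNa 368 and 379 in place of 271 and 452. That scaling moved the median of all genes to -0.15 and 0.12 in the same order, and the calls of the 9 granule genes were the same as with TMM.

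By overlap of libraries alone, 5 of the 9 stood above all WT libraries in A20iKO (Prtn3, Mpo, Elane, Ctsg and Mmp8) and 1, Camp, below them. Over all tested genes these shares were 15.4% and 12.6%. With IFNa, Prtn3, Ctsg and Ngp stood above all WT libraries and none below, against 9.77% and 8.45% of tested genes. In A20iKO against WT+IFNa, 4 stood above (Prtn3, Mpo, Ctsg and Mmp8) and 3 below (Ngp, Ltf and Camp), against 12.3% in either direction.

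Sums over the granule genes differed by group, and the secondary sum turned on Mmp8. Summed over Prtn3, Mpo, Elane and Ctsg, primary granule transcripts stood at 1.08 to 7.70 CPM in WT, 8.44 to 21.9 in WT+IFNa and 224 to 301 in A20iKO. Summed over all 4 secondary granule genes, the level was 16.7 to 30.5 CPM in WT, 36.3 to 57.8 in WT+IFNa and 66.0 to 98.1 in A20iKO. Without Mmp8, over Ngp, Ltf and Camp, it was 6.41 to 22.0 CPM in WT, 31.1 to 53.0 in WT+IFNa and 0 to 2.00 in A20iKO. The secondary sum was thus highest in A20iKO with Mmp8 and lowest there without it, and none of these 3 sums overlapped between groups. In means, Ngp held 35.2 of 43.1 CPM of the sum without Mmp8 in WT+IFNa. Ltf and Camp each overlapped between WT and WT+IFNa. Of the primary sum, Prtn3 held 174 of 274 CPM in A20iKO. Of the counts over the primary genes and Ngp, Ltf and Camp, 7 genes in all, the primary granule genes held 8.46%, 30.4% and 25.9% in WT, 41.3%, 13.7% and 29.0% in WT+IFNa, and 99.4%, 100% and 99.3% in A20iKO. The exact 95% intervals of the lowest and highest WT library were 4.30% to 14.6% and 19.9% to 42.7%, and A20iKO replicate 2 held 2653 of 2653 counts, an interval of 99.9% to 100%. With Mmp8 counted in as well, the primary share was 6.04% to 20.2% in WT, 12.7% to 37.6% in WT+IFNa and 75.2% to 80.6% in A20iKO. The 7 genes were grouped with their direction known, so the share is a description.

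**Figure D3:**
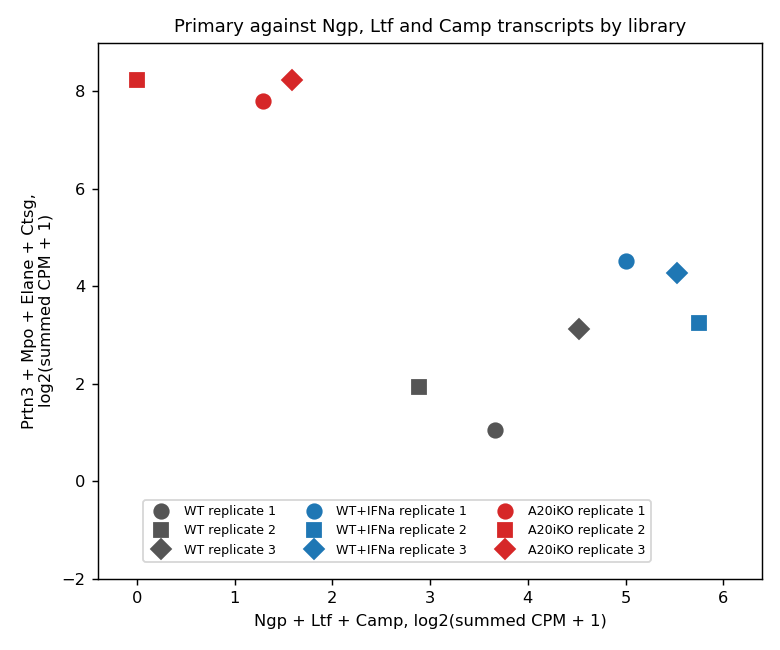
Summed level of the 4 primary granule genes (vertical axis) against that of Ngp, Ltf and Camp (horizontal axis) in each library, both as log2 of summed CPM plus 1, with a colour per group and a symbol per replicate. The A20iKO libraries lie highest on the vertical axis and lowest on the horizontal one, and the WT+IFNa libraries lie above the WT libraries on both. The horizontal sum in WT+IFNa was mostly Ngp.

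Markers of mature neutrophils moved in both directions. Ly6g, the defining surface protein of mouse neutrophils, held 0 counts in all 9 libraries, which allows up to 0.294 to 0.445 CPM in any 1 library. That limit covers counting error alone, and the handling of reads shared between genes is not given. The summed level of the 8 neutrophil markers (Ly6g, Csf3r, Cxcr2, S100a8, S100a9, Retnlg, Lcn2 and Cebpe) was 88.9 to 94.3 CPM in WT, 285 to 344 in WT+IFNa and 36.6 to 70.8 in A20iKO. Without S100a8 and S100a9 it was 6.68 to 9.30, 18.7 to 38.0 and 29.0 to 56.9 CPM in the same order. In means, Csf3r held 2.52 of 7.79 CPM of this second sum in WT, 7.11 of 28.9 in WT+IFNa and 35.9 of 43.0 in A20iKO. Its rise in A20iKO was thus mostly that of Csf3r. S100a9, a calcium-binding protein abundant in neutrophils and monocytes, rose with IFNa from 47.8 ± 0.173 to 157 ± 18.4 CPM and fell to 4.85 ± 1.45 in A20iKO (edgeR adjusted p = 0.000344 and 1.98e-06 against WT). S100a8, its partner, changed the same ways, from 36.4 ± 3.95 CPM to 120 ± 8.52 with IFNa and 5.98 ± 2.01 in A20iKO. Csf3r, the receptor for the growth factor G-CSF, rose in A20iKO from 2.52 ± 2.42 to 35.9 ± 13.7 CPM (log2 fold change 3.85; edgeR adjusted p = 0.00921).

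Cxcr2, Retnlg, Lcn2 and Chil3 passed in no comparison. Lcn2, a siderophore-binding protein of secondary granules, stood at 6.56, 0.134 and 4.87 CPM in WT, 11.2, 12.5 and 19.1 in WT+IFNa, and 5.25, 0.340 and 4.10 in A20iKO, so its WT+IFNa libraries were the highest. Cebpe encodes the transcription factor that secondary granule genes need. It held no count in WT or A20iKO and stood at 0, 2.20 and 1.33 CPM in WT+IFNa. With 28 counts in all, Cebpe did not pass the filter and was not tested. WT, without a Cebpe count (a limit of 0.109 CPM over the group), held 221 counts of Ngp and 94 of Ltf. The part of Cebpe in these levels was not tested. Whether cells of the neutrophil lineage within the sorted cells had a part in the granule gene differences was not tested.

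Of 5 markers of granulocyte and monocyte progenitors, Ms4a3, Kit and Cd34 rose in A20iKO against WT, and Cebpa and Gfi1 did not pass. Summed over Ms4a3, Kit, Cd34, Cebpa and Gfi1 they stood at 96.7 to 103 CPM in WT, 92.3 to 120 in WT+IFNa and 134 to 158 in A20iKO. In means, Cebpa held 74.8 and Kit 23.1 of 99.7 CPM of this sum in WT. In A20iKO they held 51.2 and 70.8 of 144.5 CPM, so the rise of the sum was mostly that of Kit. Ms4a3, a marker of granulocyte-monocyte progenitors, held no count in WT, 1.41, 1.62 and 0.445 CPM in WT+IFNa, and 3.94, 7.14 and 3.68 in A20iKO. Against a limit of 3 counts over the WT group, this was at least 45.3-fold higher in A20iKO (edgeR adjusted p = 0.0103) and at least 11.2-fold higher with IFNa (edgeR adjusted p = 0.0807). Kit, the stem cell factor receptor, rose from 23.1 ± 1.36 to 70.8 ± 12.8 CPM in A20iKO (edgeR adjusted p = 0.00208). Gfi1, a repressor needed for granulocyte formation, held counts in A20iKO alone, at 1.57, 1.47 and 3.05 CPM, at least 19.1-fold higher than the limit for WT without passing (edgeR adjusted p = 0.111). Cebpa, which drives early granulocyte genes, was 74.8 ± 2.64 CPM in WT and 51.2 ± 4.86 in A20iKO (edgeR adjusted p = 0.102). The part of progenitor RNA in the results for Prtn3, Mpo and Ctsg was not tested.

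**Figure D4:**
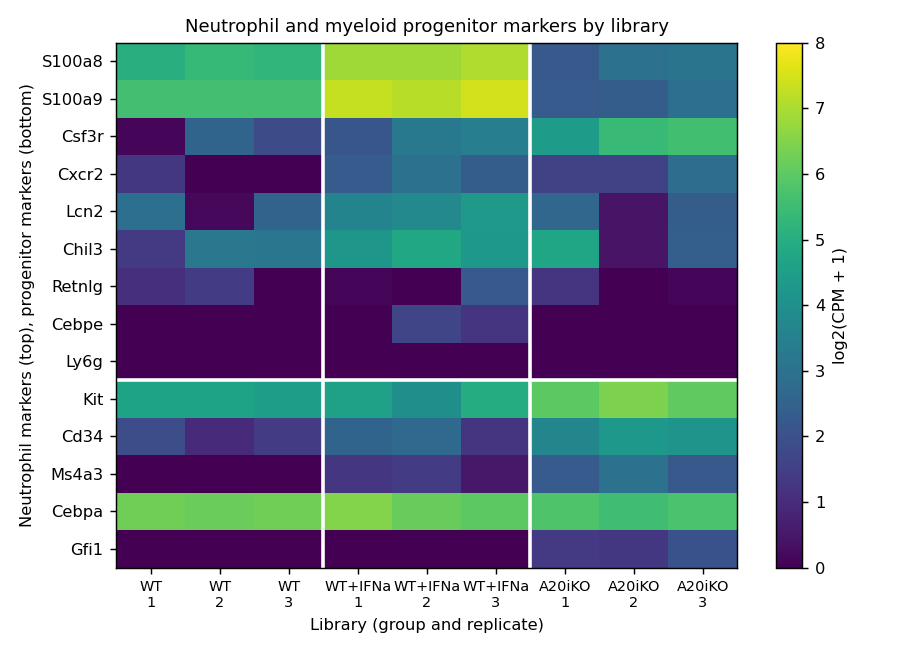
Heat map of log2(CPM + 1) per library for the neutrophil markers with Chil3 (top rows) and the progenitor markers (bottom rows). Ly6g is at 0 in all 9 libraries, S100a8 and S100a9 are highest in WT+IFNa and lowest in A20iKO, and Csf3r, Kit and Ms4a3 are highest in A20iKO.

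Other genes of granules moved in part with the 9. Of 19 listed, 14 were tested, and in A20iKO against WT 5 rose and 1 fell (median log2 fold change 0.87), while with IFNa 2 rose and 1 fell (0.42). For this list and those below, the shares over all tested genes were 5.77% higher and 4.91% lower in A20iKO against WT. With IFNa they were 2.40% and 0.702%. The medians of all tested genes were -0.01 and -0.02 in the same order. Hp, haptoglobin, a hemoglobin-binding protein also held in neutrophil granules, stood at 2.68 ± 1.20 CPM in WT, 3.20 ± 0.337 in WT+IFNa and 231 ± 28.8 in A20iKO (log2 fold change over WT 6.45; edgeR adjusted p = 1.3e-07). Lyz2, lysozyme, fell with IFNa (363 ± 48.2 to 129 ± 17.5 CPM) and rose in A20iKO (698 ± 88.6 CPM). Cd63, a membrane protein of primary granules and lysosomes, rose in both, from 63.8 ± 32.7 CPM to 215 ± 26.2 and 429 ± 44.4. Anxa1, annexin A1, stored in tertiary granules, fell from 161 ± 18.4 to 40.3 ± 4.58 CPM in A20iKO.

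Genes that process or inhibit granule proteases were counted next. Of 22 listed, 18 were tested, and in A20iKO against WT 4 rose and 2 fell (median 0.01), while with IFNa 2 fell (0.12). Ctsc, the protease that activates the granule serine proteases, rose from 209 ± 50.6 to 337 ± 17.0 CPM in A20iKO (log2 fold change 0.69; edgeR adjusted p = 0.0194). The inhibitors went both ways. Serpina3g rose from 0.294 ± 0.509 to 35.5 ± 8.12 CPM, Cstb, which encodes cystatin B, from 73.9 ± 2.74 to 169 ± 29.5, and Cst7, which encodes cystatin F, from 16.0 ± 2.51 to 64.1 ± 12.7. Cst3, which encodes cystatin C and is abundant in dendritic cells, fell from 4956 ± 419.8 to 1116 ± 132 CPM. Serpinb1a, an inhibitor of neutrophil elastase, was 11.8 ± 5.21 CPM in WT and 10.5 ± 5.21 in A20iKO (edgeR adjusted p = 0.916).

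Relatives of the 9 by gene family were counted too, in lists that share some genes with those above. Of 17 serine proteases listed, 7 were tested, and in A20iKO against WT 3 rose (median 1.51). They were Hp, a relative without protease activity, and the basophil proteases Mcpt8 and Prss34. Mcpt8, which lies beside Ctsg, stood at 10.9 ± 4.23 CPM in WT, 37.3 ± 10.2 in WT+IFNa and 53.2 ± 0.614 in A20iKO, and rose in both comparisons with WT (edgeR adjusted p = 0.00903 and 0.000627). It was the 1 of the 7 that passed with IFNa, where 4 had an unadjusted p under 0.05, as did at least 1301 of all 13251 tested genes. Of 18 other matrix metalloproteinases, 8 were tested, and 2 rose in A20iKO (median 1.17). Mmp14, a membrane-bound member, stood at 3.43, 72.9 and 7.30 CPM in WT, 11.4, 43.8 and 51.5 in WT+IFNa and 279, 320 and 288 in A20iKO (edgeR adjusted p = 0.0223 against WT). Mmp25, the leukocyte membrane-bound member, rose with IFNa as well, from 4.10 ± 4.22 to 63.1 ± 11.1 CPM, and was 74.3 ± 7.71 in A20iKO. Of 6 peroxidase relatives of Mpo, 3 were tested and none passed in A20iKO or WT+IFNa against WT by edgeR, adjusted or at an unadjusted p under 0.05. Of 10 cathelicidin and cystatin relatives found of 11 listed, 3 were tested, and Cst7 rose and Cst3 fell in A20iKO, while Cst3 fell with IFNa (3376 ± 407 CPM).

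Transcription factors of granulocyte formation were measured as well. Of 11 listed, 10 were tested, and 3 rose and 1 fell in A20iKO against WT (median 0.30), while with IFNa none passed by edgeR, adjusted or at an unadjusted p under 0.05. Myb, which acts in progenitors, rose from 8.78 ± 5.40 to 40.6 ± 10.7 CPM (edgeR adjusted p = 0.0077), Cebpb, which acts in emergency granulopoiesis, from 23.7 ± 21.0 to 100.8 ± 24.2 (0.0212), and Ikzf1 from 181 ± 23.3 to 295 ± 69.1 (0.0389). Rara, a retinoic acid receptor, fell from 179 ± 25.9 to 82.1 ± 5.34 CPM (0.00282). Of 11 myeloid progenitor genes, all tested, 6 rose and 2 fell in A20iKO (median 1.62), and 2 rose and 2 fell with IFNa (0.47). Ly6c2 and Plac8, also high in monocytes and plasmacytoid cells, had the smallest p of the list in both comparisons, with Plac8 at 133 ± 25.0 CPM in WT, 1347 ± 175 in WT+IFNa and 1131 ± 140.2 in A20iKO.

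Of 20 neutrophil genes outside the granules, 15 were tested, and 3 rose and 4 fell in A20iKO against WT (median -0.19), while with IFNa 3 rose and 1 fell (0.70). Fpr2, a formyl peptide receptor of neutrophils and monocytes, stood at 0.155 ± 0.0967 CPM in WT, 5.58 ± 2.36 in WT+IFNa and 121 ± 6.99 in A20iKO, and rose in both (edgeR adjusted p = 2.73e-05 and 1.3e-07). Wfdc17, a small secreted protein, fell in both, from 499.7 ± 54.8 CPM to 199 ± 37.9 and 68.3 ± 16.9.

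Markers of other lineages also differed by group beside the granule genes. Monocyte and macrophage genes stood at 614 to 771 CPM in sum in WT, 1628 to 1763 in WT+IFNa and 2538 to 2688 in A20iKO. Ly6c2, also among the progenitor genes, was 26.0 ± 10.6, 678 ± 103 and 740 ± 115 CPM of this sum and made most of its rise with IFNa. Of the 15 genes, 11 rose and 1 fell in A20iKO and 4 rose and 1 fell with IFNa. Adgre1 was the gene that fell in both. Csf1r, the receptor for M-CSF, rose in A20iKO from 146 ± 9.97 to 593 ± 38.9 CPM. Basophil, mast cell and eosinophil genes stood at 44.9 to 70.8, 112 to 197 and 202 to 223 CPM in sum in the same order, and of 8 tested 4 rose in A20iKO and 2 with IFNa. Of 7 plasmacytoid genes tested, 5 rose and 1 fell in A20iKO and 2, Bst2 and Spib, rose with IFNa. The gene that fell was Siglech, from 241 ± 29.4 CPM in WT to 62.8 ± 13.6 in A20iKO (edgeR adjusted p = 4.12e-05). Of 5 erythroid genes tested 1, Car2, rose in both. None of 7 stromal genes passed by edgeR in any comparison, adjusted or at an unadjusted p under 0.05. The part of these cell types in the granule gene results was not tested, and leaving out the 3 libraries with the most stromal transcripts, an alternative chosen after seeing the data, gave the granule genes Prtn3, Mpo, Ctsg and Mmp8 in A20iKO against WT (of 1286 genes called), Prtn3 with IFNa (of 366) and Prtn3, Mpo, Mmp8 and Ngp in A20iKO against WT+IFNa (of 695), out of 13174 tested.

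The genes whose levels ran most like those of the granule genes over the 9 libraries were listed by Pearson's r of log2 CPM, among 8835 candidates. The points fall into the 3 groups and share their libraries, so r is a description. Nearest to Prtn3 were Adam11 (r = 0.988), Csrp1, Cd72, Ninj1 and H2-Eb2, and nearest to Ctsg were Ralgds (0.990), Fam20c, Asf1b, Il18r1 and Eng. Nearest to Mpo were Plekhg1 (0.969), Haus8, Slamf8, Irak3 and Tm7sf3. Mmp8 ran most like Prdx5 (0.983), Dll4, Ehd1, Hp and Pilra, and Ngp like Stk38 (0.974), Cnnm3, Rbm43, Stard5 and Ifitm6. Elane, Ltf, Camp and Mmp9, under 10 CPM in every group mean, were neither matched nor among the candidates. Adam11 stood at 0.659 ± 0.503 CPM in WT, 5.72 ± 4.76 in WT+IFNa and 55.7 ± 12.2 in A20iKO, a rise in the same order of groups as Prtn3.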

How the data were processed

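The deposited files hold whole-number counts per gene symbol, 1 file per library, with no normalization. The submitters' processing notes name the build GRCm39, featureCounts 2.0.6, STAR 2.7.10b, Bowtie2 and fastp 0.23.1, with no role for each. No source used here gives the strand setting or the handling of reads shared between genes. Group and replicate number came from the titles.

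From these counts, genes were kept with filterByExpr (minimum count 10, minimum total 15), which left 13251 of 40879 genes holding 99.83% of counts. All 9 libraries entered 1 edgeR 4.0.16 quasi-likelihood fit in R 4.3.3 (TMM, group only, 6 residual degrees of freedom, common biological coefficient of variation 0.554), with Benjamini-Hochberg adjustment over all genes kept and a threshold of 0.05. SEs were derived from the F statistic. The closest 2 libraries of a group differed by a chi-square of 14.4 per degree of freedom, more than counting error alone gives. That value cannot settle whether libraries of a group share a mouse or RNA. The script was checked on simulated counts. The limit that 0 counts allow was set at 3 counts.

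The granule genes, the 15 other gene lists and the tests were chosen with earlier results of these data known. Genes named are the 9 granule genes; the 5 genes of highest r for each granule gene with at least 10 CPM in its highest group mean (log2 CPM, prior count 2; candidates likewise, without predicted or identifier-only genes); up to 4 genes by smallest p of each list; a set of marker and protease genes (Ly6g, Csf3r, Ctsc, Mmp14 and others); and those said to be chosen after their values were seen. Alternatives were DESeq2 1.42.0, limma-voom (limma 3.58.1), other scalings, filters and fits, and leaving out each library.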

Additional observations from a re-analysis of the deposited data

How the results depend on the processing

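Of 19 alternatives, 18 were planned. Among the fold changes of single granule genes, 476 values kept their direction and side of the threshold, 19 passed that had not, 8 no longer passed and 5 reversed. The reversals were all of differences that did not pass: Ltf with IFNa without WT replicate 2 (-0.15), without WT+IFNa replicate 2 (-0.05) and without the 3 libraries of highest stromal transcripts (-0.30); Mpo with IFNa without those 3 (-0.14); and Mmp9 in A20iKO against WT+IFNa without WT+IFNa replicate 2 (0.18). On leaving out each library, these Ltf and Mmp9 values ranged from -0.15 to 2.60 and from -0.94 to 0.18. The cause was not tested. Prtn3, Ctsg and Mmp8 kept their call in A20iKO against WT in all 19, and Mpo in the 18 that gave an adjusted p, since DESeq2 gave none for it. In the 2-group fits with A20iKO, Ltf did not pass the filter and has no value.

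With IFNa, the granule genes called were 2 by DESeq2 (Prtn3 and Ctsg), 3 with no filter on low counts (with Ngp), 0 in a fit of those 2 groups alone, and 1 to 3 on leaving out a library, where 3 came without WT replicate 3. In that 2-group fit fewer samples set the spread. All genes called with DESeq2 were 700 with IFNa and 1143 in A20iKO against WT+IFNa. On leaving out a library, the genes called ranged from 283 to 426 with IFNa, 919 to 1406 in A20iKO against WT and 400 to 888 in A20iKO against WT+IFNa, and the granule genes called from 4 to 5 and from 3 to 5 in the latter 2.

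Correlations of same-numbered libraries' deviations ran from -0.37 to 0.24, and those of different-numbered libraries from -0.31 to 0.36. The highest, 0.358 and 0.35, joined A20iKO replicate 1 with WT+IFNa replicate 3 and WT replicate 2, the libraries of highest stromal transcripts. These values cannot settle whether a shared number marks a shared mouse or batch. With the replicate block, 1, 5 and 4 granule genes and 298, 1075 and 535 genes passed in the 3 comparisons in the order just given, and Ngp was then lower in A20iKO than in WT (-3.83; edgeR adjusted p = 0.0497). Depth limits Ltf, Camp and Ngp in A20iKO, where groups held 3, 8 and 19 counts, and Prtn3 and Ctsg in WT, with 15 and 14.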
